A study of Mus musculus with 8 samples.

Results

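The genes described here are 40 cell cycle genes, chosen by symbol: 16 that act around DNA replication (S phase) and 24 that act in mitosis. All 40 were found among the 22558 gene symbols measured. Messenger RNA was sequenced from 8 libraries of mouse retina, 4 labelled microglia, which are resident in neural tissue, and 4 labelled infiltrating macrophages. Every library came from Msi1-CreERT2/+; R26R-DTA/+ mice (strain background C57BL/6; 129 mixed) at about 5 months of age and day 7 post-injury, so no uninjured retina is compared. Msi1-CreERT2 is a drug-inducible Cre recombinase driven from the Msi1 gene, and R26R-DTA a Cre-dependent diphtheria toxin A allele that kills any cell expressing it. In the titles, cont 1 to 4 stand for microglia and GFP 5 to 8 for macrophages. The genotype names no GFP allele, and how the cells were separated is not given in the sources used here. Whether each library is a separate animal is not stated, so the p-values reflect library-to-library spread, part of which may be technical.

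A cell that divides first licenses its replication origins with the MCM helicase, whose loading needs Cdc6 and Cdt1, and then copies its DNA with the help of the sliding clamp Pcna and a supply of nucleotides. It enters mitosis through the kinase Cdk1 and its cyclins, attaches chromosomes to the spindle under the watch of checkpoint kinases, and leaves mitosis when Cdc20 and the anaphase promoting complex destroy the cyclins. Transcripts of these genes are made in waves, the replication genes under E2F factors around the start of S phase and the mitotic genes later through CCAAT and cell cycle homology (CHR) promoter elements. Resident microglia and macrophages that arrive from blood can both divide in injured neural tissue.

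FPKM, a fragment count scaled by transcript length and library size, summed to between 207154 and 512101 per library, highest in macrophage 6 and lowest in macrophage 7. Genes at 1 FPKM or more numbered between 5992 in microglia 2 and 10282 in macrophage 8. Microglia 2 and 3 stood apart from the other libraries. Marker lists for microglia summed to 1969 to 2752 FPKM in microglia and 556 to 1828 FPKM in macrophages, with all 8 markers present in microglia. Monocyte markers summed to between 102 and 146 FPKM against between 283 and 1683. Sall1, a microglial transcription factor, stood at 8.61 to 26.8 FPKM in microglia and at or below 0.0352 in macrophages. Markers of other cells did not follow the populations alone. Erythroid markers reached 2437 FPKM in microglia 3 (Klf1 and Epor at 0 in every library), and neutrophil markers summed to between 40.6 and 176 FPKM in macrophages against at most 1.14 in microglia. Nearly all of that sum was S100a8 and S100a9, which monocytes also express, while Ngp was at 0 in every library and Camp, Ltf, Mpo, Elane and Prtn3 did not exceed 2.05 FPKM in any. Retinal neuron markers reached 142 and 150 FPKM in microglia 2 and 3, and lymphocyte markers 37.5 in microglia 4. Müller glia markers, which include retinal progenitor genes, summed to 51.7 to 76.0 FPKM in microglia and 8.86 to 22.9 FPKM in macrophages. Y-linked genes summed to 25.8, 11.7 and 16.5 FPKM in microglia 1, 2 and 3, and to at most 1.97 in microglia 4 and the macrophages. The part of these differences in the results below was not tested.

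Cell cycle transcripts were, for most genes, higher in the macrophage than in the microglial libraries, but the spread within each population was wide and 1 gene passed the test. The log2 fold change of FPKM + 1, macrophages over microglia, was above 0 for 38 of the 40 genes, where 67.1% of all 9352 tested genes lay above 0. Its median was 1.01 over the S-phase genes and 1.23 over the mitotic genes, beside 0.37 over all tested genes. The exceptions below 0 were Pcna and Ccne2. Of the 40, 38 reached the level needed for the test, 1 FPKM or more in 4 or more libraries. A gene can reach that level through the macrophage libraries alone, so counts among tested genes lean towards differences. Limma called 1 of the 38 higher at an adjusted p of 0.05, beside 1.65% of all tested genes, and 0 lower, beside 0.695%. An unadjusted p below 0.05 was reached by 14 genes, all higher in macrophages, beside 11.6% of all tested genes in that direction, and by 0 lower, beside 3.42%. In 2 genes, Bub1b and Mcm6, all 4 macrophage libraries lay above all 4 microglial libraries, beside 5.69% of all tested genes, a share near that of genes at large. In bulk RNA, fewer cells in cycle and less of each transcript per cell cannot be told apart.

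**Figure D1:**
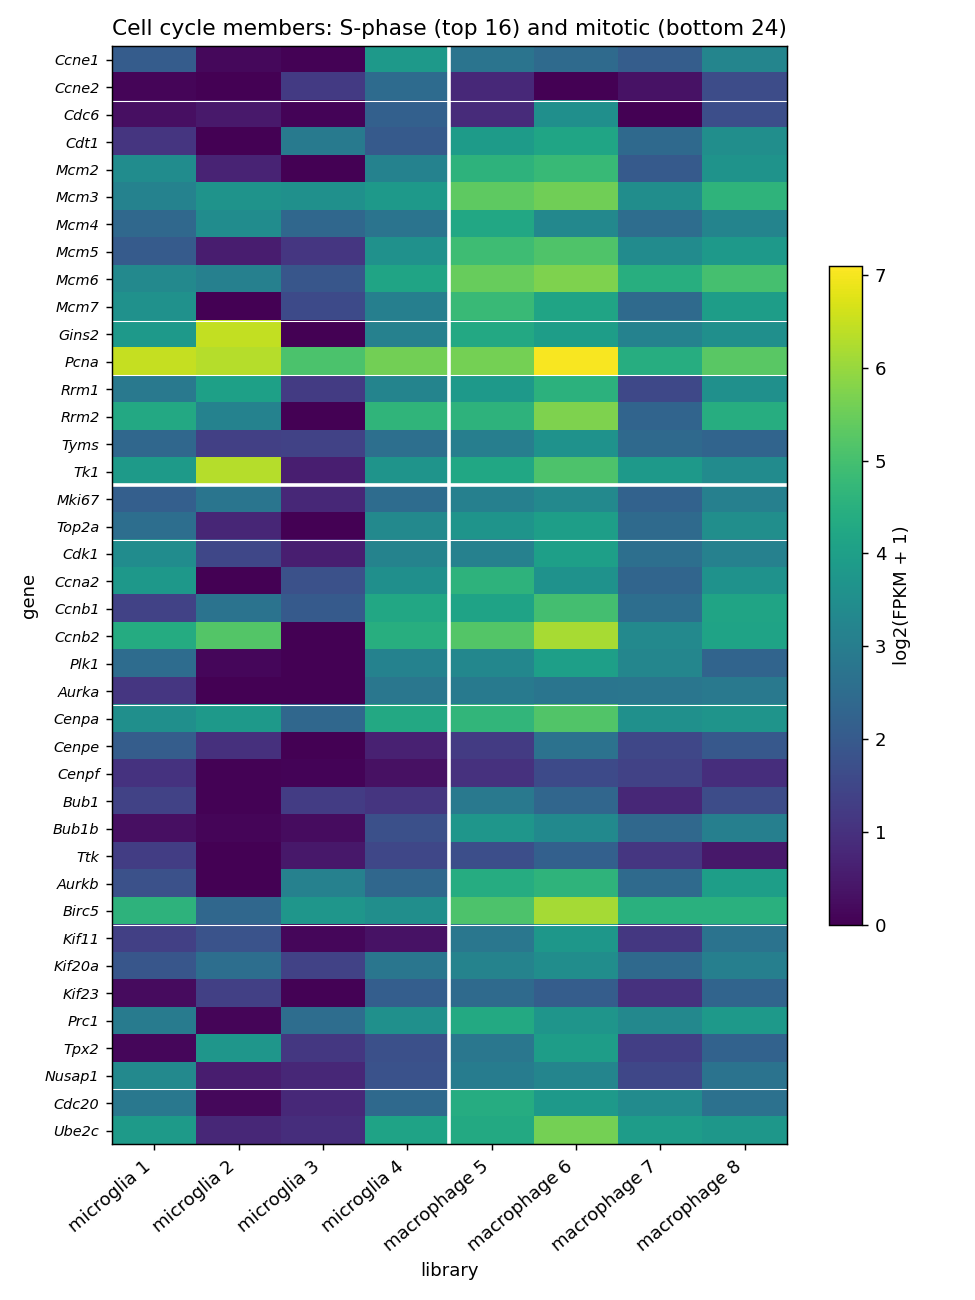
Levels of the 40 cell cycle genes as log2(FPKM + 1) (colour) in the 8 libraries (columns), S-phase genes above the thick horizontal line and mitotic genes below it, with thin lines between roles and the vertical line between populations. Dark cells gather in microglia 2 and 3, where 21 genes each lie below 1 FPKM, and macrophage 6 holds the highest value of 26 genes.

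Bub1b, which encodes the spindle checkpoint kinase BubR1, was the gene that rose in macrophages. It stood at 0.216, 0.0696, 0.177 and 2.34 FPKM in microglia 1 to 4 and 12.2, 9.32, 4.27 and 7.34 FPKM in macrophages 5 to 8. Every macrophage library lay above every microglial library, and microglia 4 was the nearest to them. The fold change was 2.55 ± 0.66 (SE, limma, adjusted p = 0.0374). The exact permutation p over the libraries was 0.0286, the smallest that 4 against 4 allows. Any gene without overlap gets this value, so it adds nothing to the separation itself. Bub1b reached 1 FPKM in 1 microglial library and in all 4 macrophage libraries. Without microglia 2 and 3 its fold change was 2.12 ± 0.69 with an adjusted p of 0.139. Leaving out single libraries gave adjusted p between 0.0236 and 0.136, and the call was lost without microglia 1 or 3 or macrophage 5, 6 or 8. The gene lies at chr2:118423947-118467328 on the forward strand of mm9.

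Origin licensing genes had the highest median fold change of the S-phase roles, 1.85 over 8 genes. Mcm6, a subunit of the MCM helicase, stood at 9.17, 7.52, 2.73 and 16.6 FPKM in microglia 1 to 4 and 42.4, 51.9, 20.8 and 31.3 FPKM in macrophages 5 to 8 (mm9 chr1:130228168-130256233, reverse strand). The populations did not overlap, with macrophage 7 just above microglia 4. Its fold change was 2.04 ± 0.61 (adjusted p = 0.0830). The exact permutation p of 0.0286 follows from the lack of overlap and adds no further support. Mcm5, a further helicase subunit, stood at 3.09, 0.486, 1.17 and 11 FPKM in microglia 1 to 4 and 28.6, 34.7, 9.68 and 13.2 FPKM in macrophages 5 to 8. Microglia 4 lay within the macrophage range and the other microglial libraries below it, and the fold change was 2.49 ± 0.73 (adjusted p = 0.0736). Mcm3 stood at 7.80, 11.5, 10.9 and 13.1 FPKM in microglia 1 to 4 and 39.8, 46.5, 10.2 and 23.4 FPKM in macrophages 5 to 8, a fold change of 1.21 ± 0.60 (adjusted p = 0.350). Here the 4 microglial libraries were close together and macrophage 7 lay among them. Neither Mcm6 nor Mcm5 nor Mcm3 passed the threshold with all libraries, and without microglia 2 and 3 their fold changes were 1.41, 1.51 and 1.28.

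Mcm2, Mcm4 and Mcm7, which complete the hexamer, overlapped between populations, with fold changes of 1.93 ± 0.84, 0.59 ± 0.66 and 1.78 ± 0.79 (adjusted p = 0.282, 0.728 and 0.292). FPKM is per length, so the 6 subunits can be set side by side within a library. Their mean was 6.59 ± 2.97 FPKM in microglia and 21.6 ± 10.6 in macrophages (SD, n = 4 each), lowest in microglia 3 (3.504) and highest in macrophage 6 (30.8). Macrophage 7, at 8.83, lay below microglia 4, at 10.3. The subunits of this complex did not keep to 1 level: their coefficient of variation within a library was 42.5%, 105%, 111% and 40.1% in microglia 1 to 4 and 31.8%, 54.4%, 74.0% and 50.6% in macrophages 5 to 8. In microglia 2, Mcm3 read 11.5 FPKM while Mcm7 was listed at 0, and in microglia 3 Mcm3 read 10.9 while Mcm2 was listed at 0. Neither 0 is marked as a failed estimate in the deposited tables. Cdt1, which loads the helicase, stood at 1.13, 0, 6.47 and 3 FPKM in microglia 1 to 4 and 13.9, 17, 4.41 and 10.3 FPKM in macrophages 5 to 8. Its fold change was 2.0 ± 0.75 (adjusted p = 0.197), with microglia 3 inside the macrophage range. Cdc6, the other loading factor, missed the level needed for the test: it reached 1 FPKM in microglia 4 (3.496), macrophage 6 (10.6) and macrophage 8 (2.26) and was listed at 0 in macrophage 7.

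**Figure D2:**
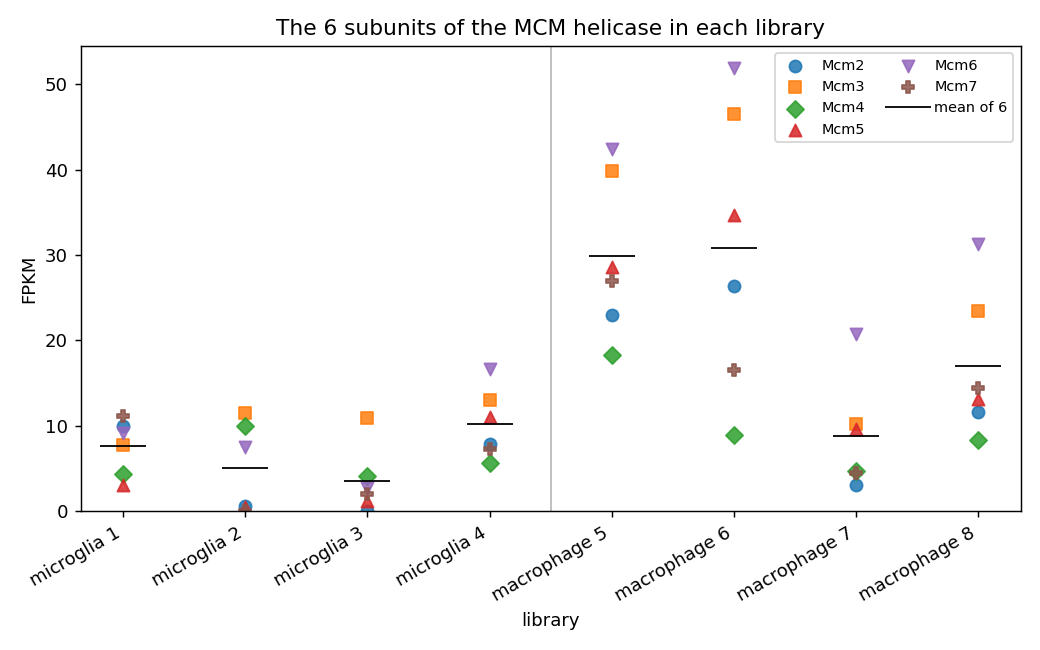
FPKM of the 6 MCM helicase subunits (symbols) and their mean (black line) in each library. The subunits range from 3.09 to 11.1 FPKM in microglia 1 and from 5.63 to 16.6 FPKM in microglia 4. They split into detected and near-0 genes in microglia 2 and spread from 0 (Mcm2) to 10.9 FPKM (Mcm3) in microglia 3. In macrophage 6 they reach 51.9 FPKM (Mcm6).

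Genes of the replication fork and of nucleotide supply showed smaller differences. Pcna, the sliding clamp of DNA polymerases, was the most abundant of the 40 and stood at 88.1, 78.4, 33.2 and 47.5 FPKM in microglia 1 to 4 and 47.7, 130.1, 20.3 and 38.1 FPKM in macrophages 5 to 8. The highest and the lowest library were both macrophages, and the fold change was -0.29 ± 0.57 (adjusted p = 0.857). Pcna also acts in DNA repair, outside S phase. Gins2, a subunit of the replicative helicase complex, stood at 13.2, 87, 0 and 7.77 FPKM in microglia 1 to 4 and 18.5, 14.4, 7.95 and 10.6 FPKM in macrophages 5 to 8. Both extremes were microglial, microglia 2 at 87.0 and microglia 3 at 0, and the fold change was 0.38 ± 0.90 (adjusted p = 0.882). The exons of Gins2 overlap those of Gse1 on the opposite strand, and strand is not stated for these data. Tk1, the thymidine kinase of the salvage pathway, stood at 13.6, 77.9, 0.525 and 11.9 FPKM in microglia 1 to 4 and 17.9, 33.9, 13 and 9.77 FPKM in macrophages 5 to 8, again with both extremes in microglia 2 and 3 (fold change 0.53 ± 0.83, adjusted p = 0.811).

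Rrm1 and Rrm2 encode the large and small subunits of ribonucleotide reductase, which makes deoxynucleotides. Rrm1 stood at 6.35, 15.5, 1.37 and 8.17 FPKM in microglia 1 to 4 and 13.3, 22.6, 1.92 and 10.9 FPKM in macrophages 5 to 8. Rrm2, the subunit made in S phase, stood at 18.3, 7.93, 0.0129 and 24 FPKM in microglia 1 to 4 and 23.1, 52.2, 3.93 and 20.3 FPKM in macrophages 5 to 8. Macrophage 7 was low and macrophage 6 high for both, and the populations overlapped (fold changes 0.54 ± 0.76 and 1.24 ± 0.86, adjusted p = 0.792 and 0.532). Rrm2 per Rrm1 was between 1.74 and 2.94 in 6 libraries, but 0.512 in microglia 2 and 0.00941 in microglia 3. Tyms, which makes thymidylate, ranged from 1.52 to 5.04 FPKM in microglia and from 3.84 to 11.2 in macrophages (fold change 0.90 ± 0.69, adjusted p = 0.571). The cyclins that drive cells into S phase were low. Ccne1, cyclin E1, stood at 3.17, 0.110, 0.0291 and 13 FPKM in microglia 1 to 4 and 5.60, 4.53, 3.29 and 8.34 FPKM in macrophages 5 to 8, highest in microglia 4 (fold change 1.11 ± 0.79, adjusted p = 0.541), and came to -0.31 without microglia 2 and 3. Ccne2, cyclin E2, reached 1 FPKM in microglia 3 (1.31), microglia 4 (4.61) and macrophage 8 (2.11) only, and was not tested; its untested fold change was -0.25.

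Among genes of mitotic entry, no fold change passed the test. Cdk1, the kinase that starts mitosis, stood at 9.88, 1.85, 0.499 and 7.96 FPKM in microglia 1 to 4 and 7.72, 15, 5.06 and 7.64 FPKM in macrophages 5 to 8. Microglia 1 and 4 lay above 3 of the macrophage libraries and microglia 2 and 3 below all of them, and the fold change of 1.03 ± 0.74 (adjusted p = 0.547) came to -0.095 without microglia 2 and 3. The cyclins that partner Cdk1 also overlapped between populations, with the microglia in other orders. Ccnb1, cyclin B1, stood at 1.65, 5.48, 3.04 and 18 FPKM in microglia 1 to 4 and 16.4, 30.7, 4.97 and 16.9 FPKM in macrophages 5 to 8 (fold change 1.37 ± 0.72, adjusted p = 0.381). Ccnb2, cyclin B2, stood at 19.7, 36.1, 0 and 21 FPKM in microglia 1 to 4 and 35.4, 71.3, 9.11 and 16.5 FPKM in macrophages 5 to 8 (fold change 1.20 ± 0.87, adjusted p = 0.553). Ccna2, cyclin A2, which acts in S phase as well as in mitosis, stood at 12.8, 0.0185, 2.41 and 10.5 FPKM in microglia 1 to 4 and 22.9, 11.2, 3.98 and 11.2 FPKM in macrophages 5 to 8 (fold change 1.25 ± 0.80, adjusted p = 0.481). For all of these cyclins, microglia 4 lay within the macrophage range, and Ccna2 came to -0.13 without microglia 2 and 3.

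Aurka, a kinase of the spindle poles, showed the least spread among macrophages of the mitotic kinases, between 5.72 and 6.58 FPKM. Microglia 4 lay in that range at 5.99, microglia 1 read 1.17, and microglia 2 and 3 were listed at 0 (fold change 1.85 ± 0.70, adjusted p = 0.210). Plk1, a kinase of centrosomes and kinetochores, ranged from 3.89 to 15 FPKM in macrophages, with microglia 1 and 4 inside that range at 4.73 and 7.84 (fold change 1.76 ± 0.79, adjusted p = 0.294). Mki67, which coats mitotic chromosomes and serves as the usual marker of cycling cells, stood at 3.45, 5.71, 0.716 and 4.70 FPKM in microglia 1 to 4 and 7.51, 9.19, 3.71 and 7.57 FPKM in macrophages 5 to 8. Microglia 2 and 4 lay among the macrophages and macrophage 7 was the lowest of its population (fold change 0.90 ± 0.70, adjusted p = 0.579). Top2a, the topoisomerase that untangles sister chromosomes, stood at 4.92, 0.712, 0.0102 and 9.11 FPKM in microglia 1 to 4 and 11.9, 14.6, 4.47 and 10.5 FPKM in macrophages 5 to 8 (fold change 1.73 ± 0.77, adjusted p = 0.294). Microglia 2 and 3 were the lowest of all libraries for Top2a, while Mki67 in microglia 2 was the highest of the microglia, so these markers placed microglia 2 differently.

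**Figure D3:**
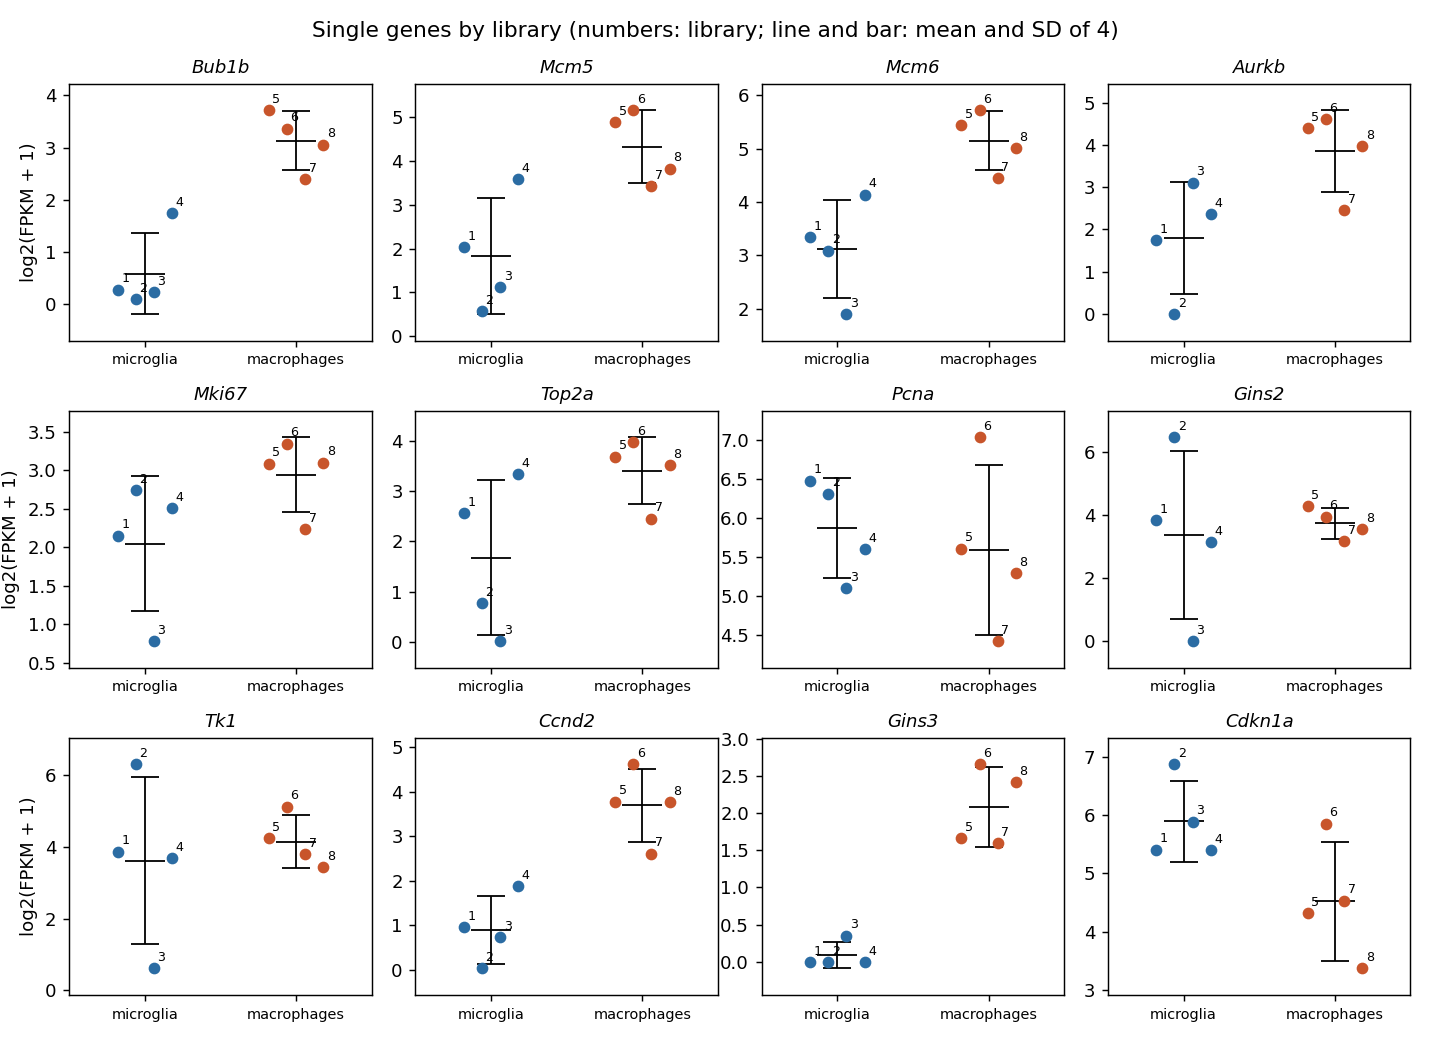
Level as log2(FPKM + 1) of 12 cell cycle genes in each library (points, with the library number), with the mean and SD of the 4 libraries of a population (black). Bub1b, Mcm6, Ccnd2 and Gins3 do not overlap between populations, microglia 2 is the highest library for Gins2 and Tk1, and Cdkn1a lies the other way.

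Centromere, checkpoint and passenger genes included the called gene and several with overlapping populations. Aurkb, the kinase of the chromosomal passenger complex, stood at 2.37, 0, 7.62 and 4.13 FPKM in microglia 1 to 4 and 19.95, 23.4, 4.52 and 14.6 FPKM in macrophages 5 to 8 (fold change 2.05 ± 0.76, adjusted p = 0.195), with microglia 3 inside the macrophage range. Birc5, survivin, a partner of Aurkb in that complex, stood at 23.2, 4.20, 12.2 and 10.4 FPKM in microglia 1 to 4 and 33.8, 69.2, 21.6 and 21.9 FPKM in macrophages 5 to 8 (fold change 1.52 ± 0.62, adjusted p = 0.246). The order of the microglia differed between these partners, since Aurkb was highest in microglia 3 and Birc5 in microglia 1. Cenpa, the histone variant that marks centromeres, stood at 10.6, 13.3, 4.14 and 18.4 FPKM in microglia 1 to 4 and 24.5, 35.2, 10.8 and 11.9 FPKM in macrophages 5 to 8 and overlapped widely (fold change 0.77 ± 0.63, adjusted p = 0.603). Bub1, the checkpoint kinase related to Bub1b, had a fold change of 0.96 ± 0.61 (adjusted p = 0.474), ranging from 0.035 to 1.65 FPKM in microglia and from 0.718 to 6.34 in macrophages. The kinetochore genes Cenpe and Cenpf and the checkpoint kinase Ttk did not exceed 5.40 FPKM in any library, with fold changes of 0.91 ± 0.60, 0.86 ± 0.43 and 0.55 ± 0.53 (adjusted p = 0.491, 0.356 and 0.675).

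Genes of the spindle and of mitotic exit also lay mostly higher in macrophages without passing. Prc1, which bundles microtubules at the spindle midzone, stood at 6.77, 0.0630, 4.83 and 10.8 FPKM in microglia 1 to 4 and 18.7, 12.1, 8.92 and 13.4 FPKM in macrophages 5 to 8 (fold change 1.51 ± 0.74, adjusted p = 0.341). Tpx2, an activator of Aurka, stood at 0.0953, 12.3, 1.21 and 2.32 FPKM in microglia 1 to 4 and 6.02, 14.6, 1.47 and 3.73 FPKM in macrophages 5 to 8, with microglia 2 above all macrophages but macrophage 6 (fold change 0.90 ± 0.80, adjusted p = 0.641). Kif20a, a kinesin of cytokinesis, stood at 2.71, 4.88, 1.64 and 5.95 FPKM in microglia 1 to 4 and 7.97, 10.2, 4.37 and 7.40 FPKM in macrophages 5 to 8 (fold change 0.87 ± 0.67, adjusted p = 0.577). Microglia 2 and 4 lay within the macrophage range for Kif20a. Kif11, the motor that separates spindle poles, had a fold change of 1.71 ± 0.69 (adjusted p = 0.242), Kif23, a kinesin of the midzone, 1.04 ± 0.62 (0.446), and Nusap1, a spindle microtubule protein, 0.99 ± 0.74 (0.566). Cdc20, the activator of the anaphase promoting complex, stood at 6.17, 0.107, 0.774 and 4.35 FPKM in microglia 1 to 4 and 20.1, 13.4, 9.83 and 5.28 FPKM in macrophages 5 to 8 (fold change 2.03 ± 0.75, adjusted p = 0.194). Ube2c, the ubiquitin-conjugating enzyme of that complex, stood at 13.7, 0.713, 0.912 and 16.3 FPKM in microglia 1 to 4 and 19, 48.2, 14.3 and 12.6 FPKM in macrophages 5 to 8 (fold change 1.99 ± 0.78, adjusted p = 0.228). For both, microglia 1 lay within the macrophage range and microglia 2 and 3 below 1 FPKM.

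**Figure D4:**
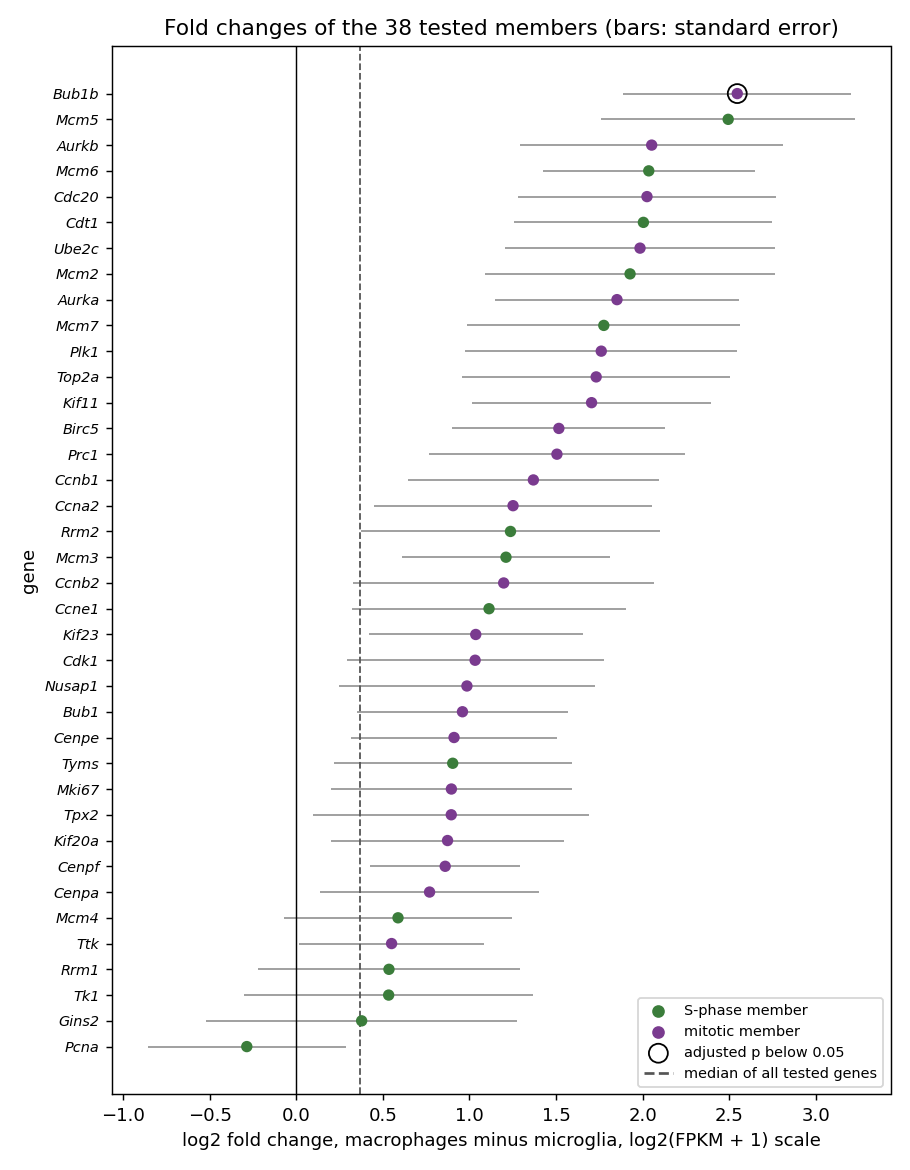
Log2 fold change of FPKM + 1, macrophages over microglia, with its standard error, for the 38 tested genes, S-phase genes in green and mitotic genes in purple. The dashed line is the median of all tested genes (0.37), the circle marks Bub1b, and Pcna is the one tested gene below 0.

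The S-phase genes and the mitotic genes were then set against each other within each library, which depends little on the scale of the library as a whole. The mean log2(FPKM + 1) of the S-phase genes exceeded that of the mitotic genes in all 8 libraries. The gap was 0.58, 1.17, 0.44 and 0.80 in microglia 1 to 4 and 0.54, 0.53, 0.16 and 0.62 in macrophages 5 to 8. Microglia 2 had the widest gap and macrophage 7 the narrowest, and the populations overlapped (0.75 ± 0.32 and 0.46 ± 0.20, SD, n = 4 each). Summed FPKM weights abundant genes more. S-phase over mitotic FPKM was 1.36, 3.28, 1.53 and 1.12 in microglia 1 to 4 and ran from 0.831 to 1.09 in macrophages, so each microglial library lay above each macrophage library, by little for microglia 4. In microglia 2, Gins2, Tk1 and Pcna, at 87.0, 77.9 and 78.4 FPKM, made up most of an S-phase sum of 299. The mitotic sum there was 91.2, of which Ccnb2 was 36.1. This ratio was looked at after the values were seen and carries no test.

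Single libraries set much of the contrast. Microglia 3 held the lowest sums, 65.7 FPKM of S-phase and 42.9 FPKM of mitotic transcripts. Of the 40 genes, 5, 21, 21 and 3 lay below 1 FPKM in microglia 1 to 4 (14.8%, 42.0%, 23.0% and 9.94% of all tested genes), and between 1 and 3 in the macrophages. In microglia 2, genes in general were low, whereas in microglia 3 the cell cycle genes were lower than most: the median deviation from a gene's mean over libraries was -1.61 for S-phase and -1.40 for mitotic genes there, beside -0.05 for all tested genes. The same values in microglia 2 were -0.74, -1.28 and -0.75. In microglia 4, 28 of the 40 genes lay inside the macrophage range, 10 below it and 2 above it, shares near the 66.7% inside and 20.9% below of all tested genes. Microglia 3 had 7 inside and 33 below, beside 45% and 33%. Without microglia 2 and 3 the median fold change was 0.36 over S-phase and 0.58 over mitotic genes, beside 0.17 over all tested genes, and limma called 0 of the 38, beside 1.75% of all tested genes, with 7 at an unadjusted p below 0.05, beside 9.71%. With a term for Y-linked expression the medians were 0.26 and 0.64, beside 0.087 over all tested genes. Limma again called 0, beside 0.267% of all tested genes, and 0 had an unadjusted p below 0.05, beside 4.08%. Y-linked sums were high in microglia 1 to 3 and low in microglia 4 and all macrophages, so the term is largely confounded with population. The contrast then rests mainly on microglia 4, and the SE of Bub1b rose from 0.66 to 0.92. Calls lost with this term therefore do not show that a difference is absent.

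Among macrophages, library 6 held the highest value of 26 genes and library 5 of 9, beside 43.0% and 5.62% of all tested genes. Macrophage 6 also had the largest FPKM sum. Scaled to an equal FPKM sum, library 5 was highest for 16 genes, library 8 for 7 and library 6 for 6, beside 8.69%, 25.8% and 10.8% of all tested genes. As a share of the FPKM sum, the 40 genes took 0.112%, 0.112%, 0.0276% and 0.122% in microglia 1 to 4 and 0.211%, 0.181%, 0.1196% and 0.173% in macrophages 5 to 8. Macrophage 7 lay at the level of microglia 1, 2 and 4 on this measure. Its monocyte markers, 283 FPKM, were the lowest of the macrophages. Its S100a8 and S100a9, 67.4 and 50.2 FPKM, were the second highest, and the other 6 genes of the neutrophil list were at 0 there. The part of these values in its level was not tested.

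**Figure D5:**
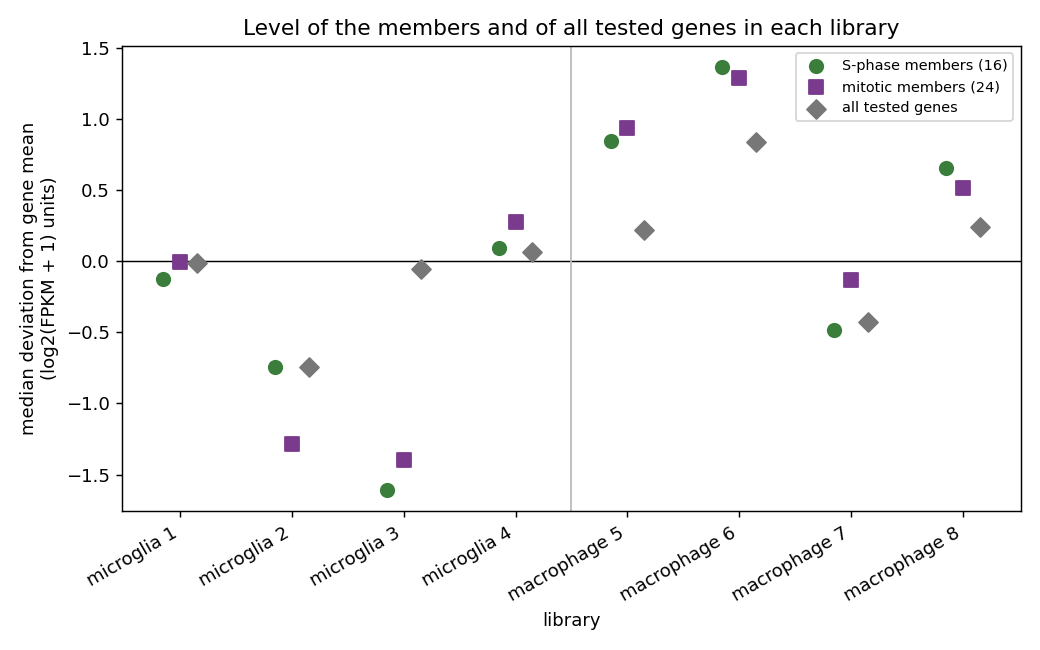
Median deviation of the S-phase genes (circles), the mitotic genes (squares) and all tested genes (diamonds) from each gene's mean over the 8 libraries, in log2(FPKM + 1) units. The cell cycle genes lie well below all tested genes in microglia 3 and above them in macrophages 5, 6 and 8, while in microglia 1 and 4 both kinds of cell cycle gene lie near 0.

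Promoters of the genes were examined because the replication and mitotic waves are known to be driven through different elements. RefSeq promoters (GRCm38.p6, from 250 bases before to 50 after the annotated start) matched 33 of the 40 symbols and gave 35 promoters. The letters TTTCGCGC, TTTGGCGC or TTTCCCGC, on either strand, written here for an E2F site, occurred in 6 of 14 S-phase promoters (42.9%) and 1 of 21 mitotic promoters (4.8%), beside 1.8% of all 32851 promoters. The S-phase promoters were those of Cdc6, Cdt1, Mcm3, Mcm5, Mcm6 and Mcm7, and the mitotic one was that of Cdk1. The CHR letters TTTGAA or TTCGAA occurred in 2 of 14 (14.3%) and 17 of 21 (81.0%), beside 19.2%. CCAAT occurred in 64.3% of S-phase and 90.5% of mitotic promoters, beside 37.4%. A match is a description of letters, not of a bound site. Some matches overlap, as TTTCGCGC and the reverse complement of TTTGGCGC do in Mcm5. The 250 bases before the start are shown 5′ to 3′ on the gene's strand, with matches in capitals, for the 3 genes with the highest fold changes among those with both a promoter entry and a CHR or E2F match (Bub1b, Mcm5 and Mcm6), and for Cdc20 and Cdk1, as a mitotic promoter with CHR and CCAAT side by side and as one with all 3 elements. They lie at chr2:118597961-118598210 (forward strand), chr8:75109259-75109508 (forward), chr1:128359706-128359955 (reverse), chr4:118437344-118437593 (reverse) and chr10:69352913-69353162 (reverse).
Bub1b: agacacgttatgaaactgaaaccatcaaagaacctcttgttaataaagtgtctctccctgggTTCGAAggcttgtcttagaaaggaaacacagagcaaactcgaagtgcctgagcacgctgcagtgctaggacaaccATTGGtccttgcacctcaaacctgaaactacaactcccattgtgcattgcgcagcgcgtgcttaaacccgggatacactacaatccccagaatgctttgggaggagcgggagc
Mcm5: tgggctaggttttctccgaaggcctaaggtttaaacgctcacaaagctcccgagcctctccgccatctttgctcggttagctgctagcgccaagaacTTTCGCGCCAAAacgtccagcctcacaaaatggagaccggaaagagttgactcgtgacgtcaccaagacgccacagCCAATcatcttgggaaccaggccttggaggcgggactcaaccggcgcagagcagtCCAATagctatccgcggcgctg
Mcm6: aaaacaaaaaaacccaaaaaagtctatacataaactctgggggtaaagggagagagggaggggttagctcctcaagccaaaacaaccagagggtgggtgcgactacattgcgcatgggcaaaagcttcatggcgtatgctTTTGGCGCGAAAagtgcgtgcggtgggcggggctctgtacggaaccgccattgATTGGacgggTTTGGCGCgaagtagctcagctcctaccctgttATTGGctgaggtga
Cdc20: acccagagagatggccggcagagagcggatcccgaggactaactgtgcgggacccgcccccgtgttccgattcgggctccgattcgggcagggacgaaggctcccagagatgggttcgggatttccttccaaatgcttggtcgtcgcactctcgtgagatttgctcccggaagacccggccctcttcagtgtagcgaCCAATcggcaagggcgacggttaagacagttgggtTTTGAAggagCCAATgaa
Cdk1: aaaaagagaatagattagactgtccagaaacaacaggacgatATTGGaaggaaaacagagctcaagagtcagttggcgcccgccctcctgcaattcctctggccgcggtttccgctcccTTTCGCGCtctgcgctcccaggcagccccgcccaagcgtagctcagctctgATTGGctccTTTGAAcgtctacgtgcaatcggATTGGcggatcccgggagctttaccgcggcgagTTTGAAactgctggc

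The Mcm5 and Mcm6 windows hold E2F and CCAAT letters and no CHR letters, and those of Bub1b and Cdc20 hold CHR and CCAAT letters and no E2F letters. In Cdc20 the CHR letters lie at position -18 from the start, between CCAAT at -53 and -8. In Bub1b the CHR letters shown lie at -188, and a further CHR match, TTTGAA, lies at position 40 after the start, beyond the bases shown. Genes with the same letters differed in fold change: among those with E2F letters Mcm5 had 2.49 ± 0.73 and Mcm3 1.21 ± 0.60, and among those with CHR letters Bub1b had 2.55 ± 0.66 and Mki67 0.90 ± 0.70. These differences between genes were not tested.

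Other genes of the same processes gave the wider setting. Of 42 further S-phase genes, 36 were tested and limma called 1 higher and 0 lower, with 14 higher and 0 lower at an unadjusted p below 0.05 and a median fold change of 1.08. Over all tested genes, 1.65% were called higher and 0.695% lower, and 11.6% and 3.42% had an unadjusted p below 0.05 in these directions. The called one was Gins3, a partner of Gins2 (limma adjusted p = 0.0247). It stood at 2.18, 5.29, 2.01 and 4.35 FPKM in macrophages 5 to 8 and 0.277 in microglia 3, and was listed at 0 in microglia 1, 2 and 4. Gins3 reached 1 FPKM in 0 microglial libraries and in all 4 macrophage libraries. It thus met the level needed for the test only through the population where it was higher, and its call leans towards a difference. No fold is given for it against listed zeros, and its adjusted p was 0.0747 without microglia 2 and 3. The call was also lost with microglia 1 or 4 or macrophage 5 or 8 left out, at adjusted p between 0.0556 and 0.0906. Gins2 and Gins3, subunits of 1 complex, thus differed in microglia 2, at 87.0 FPKM and at 0. Of 52 further mitotic genes, 45 were tested and 0 were called, with 7 higher and 0 lower at an unadjusted p below 0.05 and a median of 0.70. The most abundant was Stmn1, stathmin, which destabilises microtubules, at 126, 86.4, 15.1 and 75.9 FPKM in microglia 1 to 4 and 108, 186, 84.1 and 77.1 FPKM in macrophages 5 to 8 (fold change 0.83 ± 0.58, adjusted p = 0.536).

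Of 11 cyclins and kinases of the G1 phase, 10 were tested, with a median fold change of 0.95. Limma called 1 higher, beside 1.65% of all tested genes, and 0 lower, beside 0.695%. The called one was Ccnd2, cyclin D2, which links growth signals to the cycle. It stood at 0.940, 0.0260, 0.669 and 2.67 FPKM in microglia 1 to 4 and 12.7, 23.4, 5.11 and 12.5 FPKM in macrophages 5 to 8. Ccnd2 reached 1 FPKM in 1 microglial library and in all 4 macrophage libraries. All macrophage libraries lay above all microglial libraries, with a fold change of 2.79 ± 0.71 (adjusted p = 0.0320), and 2.27 with an adjusted p of 0.110 without microglia 2 and 3. The call was also lost with microglia 1 or 3 or macrophage 5, 6 or 8 left out, at adjusted p between 0.0638 and 0.1199. Of 23 inhibitors of the cycle and genes of quiescence, 19 were tested and 0 were called, with a median of 0.44. An unadjusted p below 0.05 was reached by 3 higher, beside 11.6% of all tested genes, and 1 lower, beside 3.42%. The most abundant of them, Cdkn1a, the p53-induced inhibitor p21, stood at 41.4, 116, 58.2 and 41.1 FPKM in microglia 1 to 4 and 18.9, 56.8, 22.1 and 9.35 FPKM in macrophages 5 to 8. Microglia were above 3 of the macrophage libraries, and macrophage 6 lay among the microglia (fold change -1.37 ± 0.59, adjusted p = 0.274).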

How the data were processed

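Reads were handled with bcl2fastq 1.8.4 and Cufflinks 2.1.1 on mm9, per the submitters' processing notes, after an Illumina mRNA-seq preparation, per the labels' protocols. The sources used here name no aligner, annotation or strand. The deposited values are, per the file headers, FPKM per gene, estimated by the authors, with bounds of a confidence interval that were not used (23 of 320 values for the 40 genes lie outside their own bounds). Of 23021 rows, those sharing a symbol were summed, and 9 symbols with a failed estimate were left out. FPKM removes depth and transcript length but not composition. No counts were used. Depth, estimated from the smallest recurring values of 6173 single-transcript genes, was between 11.6 (microglia 1) and 24.6 M fragments, where 1 fragment on 2 kb is between 0.022 and 0.0467 FPKM.

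Limma 3.58.1 in R 4.3.3 was fitted to log2(FPKM + 1) of all 9352 genes at 1 FPKM or more in 4 or more of the 8 libraries, with an intensity trend and no covariate, 4 macrophage against 4 microglial libraries, two-sided, with Benjamini-Hochberg adjustment over all tested genes and a threshold of 0.05. Fold changes on this scale understate changes of low genes. In simulated data of this comparison with 9352 genes, 6.4% of genes changed by a log2 of 2 were called and 89.3% of those changed by 4. Groups came from the tissue subtype in the labels, which give no batch. The 40 genes, the other lists and the tests were chosen with earlier results of these data known. Values in every library are given for genes called or not overlapping between populations, for Mki67, Top2a, Cdk1 and Pcna, and for up to 3 genes of highest mean FPKM in each role, and of the other lists for up to 4 called genes or, with none called, the most abundant; Cdt1 was added after its values were seen. Alternatives covered the pseudocount, the filter, scaling, the trend, a Y-linked term, library weights and left-out libraries. Of the 40 genes, 11 share exons with another gene and 2 (Pcna and Ccnb2) have named pseudogenes, so reads may have been divided between them. Tables and figures used Python 3.11.15, pandas 2.3.3, numpy 2.4.6, scipy 1.17.1 and matplotlib 3.10.9.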

Additional observations from a re-analysis of the deposited data

Results flagged for a closer look

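In 60 groups of 4 libraries checked, 4 held a library far from the others by Dixon's criterion, which chance gives in about 1 of 20 groups. Bub1b read 2.34 FPKM in microglia 4 against between 0.0696 and 0.216 in the other microglia, still below every macrophage library. Gins2 read 87.0 FPKM in microglia 2 against at most 13.2, and Tk1 77.9 FPKM in microglia 2 against at most 13.6. Gins3 read 0.277 FPKM in microglia 3 against 0 in the other microglia.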

How the results depend on the processing

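Of 219 genes called, 70.3% were higher in macrophages. The count was 136 at a pseudocount of 0.1, 50 with no filter, 336 at an equal FPKM sum, 25 with the Y-linked term, 1075 with library quality weights, and between 119 and 258 with 1 library left out. The share higher was 59.5% under upper-quartile, 55.1% under median-of-ratios and 57.9% under quantile scaling, 60.0% with no filter and 49.7% without macrophage 6, and the median fold change of all tested genes was 0.27, 0.13 and 0.07 under these 3 scalings. Cell cycle genes called numbered 0 at a pseudocount of 0.1, with no filter, with a filter on the mean, with the Y-linked term and without microglia 2 and 3, 3 at an equal FPKM sum (Bub1b, Mcm5 and Mcm6), 8 with library quality weights (Aurkb, Bub1b, Cdc20, Cdt1, Kif11, Mcm3, Mcm5 and Mcm6) and between 0 and 2 with 1 library left out. Under quantile scaling the 1 called was Mcm6, not Bub1b. Gins3 and Ccnd2 were each called in 11 of 20 alternatives. Bub1b was called in 9 of 20, with adjusted p from 0.0003793 to 0.9999. The median of mitotic genes was 2.03 at a pseudocount of 0.1, and that of S-phase genes stayed above 0 in every alternative run, lowest at 0.26. Fold changes changed sign for Pcna without macrophage 7 (0.10), the untested Ccne2 without microglia 4 (0.26), Gins2 at a pseudocount of 5 (-0.053) and without microglia 3 (-0.74), and Tk1 without microglia 3 (-0.47). Without microglia 2 and 3 they changed sign for Cdk1 (-0.095), Ccne1 (-0.31), Rrm2 (-0.20) and Ccna2 (-0.13), and with the Y-linked term for Ccne1 (-0.54), Rrm2 (-0.29), Rrm1 (-0.27) and Ccnb1 (-0.32). With 1 library left out, fold changes ranged from -0.77 to 0.10 for Pcna, -0.74 to 1.41 for Gins2 and -0.47 to 1.43 for Tk1. The causes were not tested. The gap between S-phase and mitotic levels moved by less than its SD in each alternative run. No paired analysis was run, because the populations share no replicate number and no pairing is stated. Whether microglial and macrophage libraries came from the same animals is not known from the sources used here. Few libraries and low depth in FPKM below 1 limit single genes, and most changes of a log2 of 2 would be missed here.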

Other observations

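Some of the further cell cycle genes, picked out after their values were seen, separated the libraries as fully as Bub1b, and several of them did not pass the test. All 4 macrophage libraries lay above all 4 microglial libraries in 10 of 42 further S-phase genes and 3 of 52 further mitotic genes. The same held for 3 of 11 G1 genes and 2 of 23 inhibitor and quiescence genes, beside 5.69% of all tested genes. The S-phase count includes Gins3, which was called, and the G1 count includes Ccnd2, which was called. The S-phase count also includes Exo1, Chek1 and E2f8, which were not tested, whereas the share of 5.69% covers tested genes only. Dnmt1, the methyltransferase that copies DNA methylation at the replication fork, read 1.56, 0.282, 0.758 and 2.04 FPKM in microglia 1 to 4 and 9.28, 13.7, 5.67 and 11.1 FPKM in macrophages 5 to 8 (fold change 2.36 ± 0.67, limma adjusted p = 0.0637). Gmnn, geminin, which binds Cdt1, read 1.05 to 8.47 FPKM in microglia and 9.65 to 28 FPKM in macrophages (2.06 ± 0.69, adjusted p = 0.137). Cdkn2d, an inhibitor of the cyclin D kinases, also lay higher in every macrophage library, between 19.4 and 66.2 FPKM against between 5.16 and 12.4 (1.66 ± 0.60, adjusted p = 0.182). Ccnd1, cyclin D1, lay the other way from Ccnd2, at 13.9, 36.9, 43.6 and 11.4 FPKM in microglia and 10.1, 30.5, 5.21 and 5.96 in macrophages (-1.10 ± 0.66, adjusted p = 0.450), with overlapping populations.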
